A study of Homo sapiens with 2 samples.

Results

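The genes examined were the tRNA genes of human chromosome 6, the largest group of tRNA genes on 1 chromosome in the RefSeq gene table (GRCh38). The rule that picks them is by annotation, as genes of biotype tRNA on that chromosome, and uses no measured value, although the group was proposed with earlier results of these data known. The table lists 155 of them among 465 tRNA genes in all. One of these, TRA-CGC5-1, stands among rows of unplaced sequence and was given no value, so 154 genes were placed on the chromosome. The gene symbols name the amino acid and the anticodon, and the gene lengths of 71 to 108 bp, with a median of 73 bp, are those of tRNA genes. Of the 154 genes, 144 lie between positions 26286526 and 28989083, a stretch of 2.7 Mb within 6p22. Below, 6p22 stands for this stretch only, so TRQ-CTG1-1 at position 18836171 is not counted in it.

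The measurement was a chromatin immunoprecipitation with sequencing (ChIP-seq) of ETV4, an ETS-family transcription factor of the PEA3 group, in A549 cells, an established human lung adenocarcinoma line. The cells carried an shRNA against ETV4 (A549-shETV4) and were transfected again with Flag-tagged ETV4, and the chromatin was taken with an anti-Flag antibody. The series holds 1 immunoprecipitate and 1 input of the same line, so there was no replicate, no comparison with cells lacking Flag-ETV4 and no SD. ETV4 came from a transfected plasmid, and the peaks describe the tagged protein at the level the plasmid gave. A peak list holds no expression values, so the identity of the line and the activity of the tRNA genes were not checked here. The list of the immunoprecipitate has 54389 peaks, of which 3329 are on chromosome 6.

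tRNA genes are transcribed by RNA polymerase III from a promoter inside the gene, made of the A box and the B box, which TFIIIC binds before it places TFIIIB ahead of the start. ETS factors are known from promoters of RNA polymerase II, where they bind a core with the letters GGAA. The tRNA genes of 6p22 are known to lie in clusters around the major histone gene cluster, often as several near-identical copies of 1 gene. A peak close to a tRNA gene can therefore lie over the gene or over the start of a neighbouring gene read by the other polymerase.

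The sequences show this for the member with the strongest peak and for a shared promoter. RefSeq promoter windows (GRCh38.p14, 250 bases before to 50 after a gene's start) hold no tRNA gene starts of their own, but those of neighbouring genes reach some members. The first sequence is the window of the long non-coding RNA LARRPM (chr6:27020257-27020556, minus strand), which contains the whole of TRI-TAT2-2. The second is that of the protein-coding gene HMGN4 (chr6:26538116-26538415, plus strand), which lies beside TRR-ACG1-2 and contains the 11 bases of TRV-CAC1-6 with the highest coordinates. The third is that of the long non-coding RNA HCG11 (chr6:26521456-26521755, plus strand), which lies inside the peak of TRL-CAG1-7. Capitals mark the ETS cores CCGGAA and CAGGAA on either strand, so a core on the opposite strand appears as its reverse complement.
LARRPM window with TRI-TAT2-2: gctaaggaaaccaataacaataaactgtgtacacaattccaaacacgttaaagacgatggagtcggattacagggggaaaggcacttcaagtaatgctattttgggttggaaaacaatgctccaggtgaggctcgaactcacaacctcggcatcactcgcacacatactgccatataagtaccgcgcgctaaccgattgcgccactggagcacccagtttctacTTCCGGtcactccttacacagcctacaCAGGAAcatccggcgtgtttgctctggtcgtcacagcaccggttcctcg
HMGN4 window beside TRV-CAC1-6: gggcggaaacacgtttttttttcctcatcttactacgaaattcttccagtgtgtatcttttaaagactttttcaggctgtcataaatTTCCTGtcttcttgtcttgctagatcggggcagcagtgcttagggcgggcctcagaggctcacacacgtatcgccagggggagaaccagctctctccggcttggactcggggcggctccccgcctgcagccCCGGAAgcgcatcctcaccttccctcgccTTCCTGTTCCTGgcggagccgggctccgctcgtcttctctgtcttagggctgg
HCG11 window beside TRL-CAG1-7: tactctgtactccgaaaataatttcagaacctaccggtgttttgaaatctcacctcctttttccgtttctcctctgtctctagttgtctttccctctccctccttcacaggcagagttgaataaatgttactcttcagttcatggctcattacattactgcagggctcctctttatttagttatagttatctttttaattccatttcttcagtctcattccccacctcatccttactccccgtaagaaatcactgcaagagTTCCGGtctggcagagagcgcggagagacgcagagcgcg
Of all 35116 windows of the RefSeq table, 17.2% hold CCGGAA and 28.4% hold CAGGAA on at least 1 strand. In the LARRPM window, CCGGAA lies 16 bp and CAGGAA 43 bp from the edge of TRI-TAT2-2, outside the gene. The summit of the peak is 305 bp from that CCGGAA and outside the window. In the HMGN4 window, which holds the summit of its peak, CCGGAA lies 30 bp from the summit and 2 matches of CAGGAA lie 1 bp and 5 bp from it. In the HCG11 window, CCGGAA lies 211 bp from the summit. The windows of LOC105374988 beside TRY-GTA1-1 and of LOC124901296 beside TRA-AGC2-1 also overlap a member's peak, the latter holds the summit, and neither has a match to these letters. A match is a description of the letters and not a measured binding site.

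A set of 4 windows each hold a complete tRNA gene, which allows genes with and without a peak to be read side by side. The number of such windows was set by the table, and 3 of these genes were chosen after their values were seen. TRI-TAT2-2 (fold 58.8) and TRA-AGC2-2 (fold 4.11) have a peak within 500 bp, whereas TRI-AAT8-1 and TRL-AAG2-2 have none. Each sequence below is in the direction that reads as the tRNA, and capitals mark the B box motif GTTCGANNC.
TRI-TAT2-2, chr6:27020346-27020439, plus strand: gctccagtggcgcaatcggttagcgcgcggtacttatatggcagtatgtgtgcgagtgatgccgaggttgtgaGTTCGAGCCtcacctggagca
TRA-AGC2-2, chr6:28863685-28863756, minus strand: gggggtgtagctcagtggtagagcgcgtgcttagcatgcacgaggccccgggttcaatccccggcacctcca
TRI-AAT8-1, chr6:27668583-27668656, plus strand: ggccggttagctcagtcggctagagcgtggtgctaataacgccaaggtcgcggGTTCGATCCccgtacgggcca
TRL-AAG2-2, chr6:28943622-28943703, minus strand: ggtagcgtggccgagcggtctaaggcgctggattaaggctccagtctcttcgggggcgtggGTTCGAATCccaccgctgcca
The B box motif was found in 3 of the 4 genes and in 0.829% of all windows on either strand, starting at base 74 of TRI-TAT2-2, base 54 of TRI-AAT8-1 and base 62 of TRL-AAG2-2. The windows are promoters of other genes and longer than a tRNA gene, so these shares are not of like sequences. The B box letters were present in genes with and without a peak. The A box letters TGGCNNAGT, present in 3.43% of all windows, did not occur in exactly this form in these 4 genes. TRA-AGC2-2 and TRI-AAT8-1 hold tagctcagt, which differs from it by an A in place of a G. TRA-AGC2-2 also holds gttcaatcc, which differs from the B box motif in the same way. The searches allowed no mismatch, so a missing match does not mean that a gene lacks the box. None of the 4 holds CCGGAA or CAGGAA within the gene, searched on both strands. The nearest peak to TRI-AAT8-1 was 1176 bp away and that to TRL-AAG2-2 was 2488 bp away.

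An ETV4 peak lay within 500 bp of 62 of the 154 genes, that is 40.3% (Wilson 95% interval 32.8 to 48.2%). For 59 genes, 38.3% (31.0 to 46.2%), the peak was over 1 kb from every end of a protein-coding gene. Almost all of the peaks thus stood apart from the outer ends of protein-coding genes, and starts inside a gene were not searched. With the distance taken to the whole protein-coding gene body, 56 genes (36.4%) had a peak apart from one. The remaining 92 genes had no peak in this window, which says only that none passed the authors' threshold at this depth. Over every position of the same stretch of 6p22, a window as long as the median tRNA gene had a peak within 500 bp at 9.25% of positions, and over all of chromosome 6 at 3.32%. Of the 144 genes in 6p22, 59 had a peak, which is 41% (33.3 to 49.1%). The intervals cover counting error over genes, and genes that lie close together are not independent.

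The 62 genes shared 55 distinct peaks. Of these peaks, 9 lay within 500 bp of 2 tRNA genes each, such as the peak over TRS-AGA2-2 and TRD-GTC2-6 and the peak over TRX-CAT1-7 and TRG-GCC2-3. TRA-AGC2-1 and TRL-CAA1-1 had 2 peaks each. With genes whose windows overlap merged into 139 loci, 53 loci had a peak and 51 had one apart from protein-coding ends.

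Other gene classes of the same table gave the scale. A peak lay within 500 bp of an end of 59.8% of protein-coding genes (n = 19817) and of 29.5% of all RefSeq genes (n = 58415). In the 6p22 stretch, 10 of 21 histone genes (47.6%, 28.3 to 67.6%) and 20 of 32 other protein-coding genes (62.5%, 45.3 to 77.1%) had one. Among tRNA pseudogenes of chromosome 6, 1 of 9 had one (11.1%, 1.99 to 43.5%). A protein-coding gene offers both of its ends to the search and a tRNA gene is tested as a whole, so these shares are side by side and were not tested against each other.

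**Figure D1:**
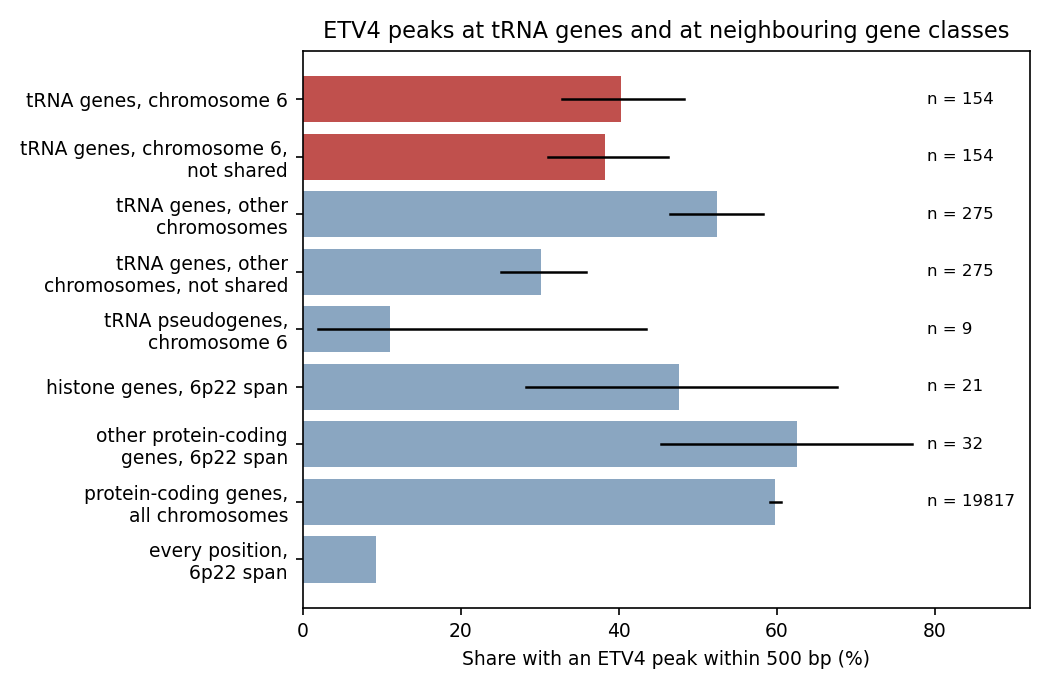
Share of genes with an ETV4 peak within 500 bp (percent, from 0), for tRNA genes of chromosome 6 in red and comparison classes in blue. Lines are Wilson 95% intervals and n is the number of genes, with no interval for the share of positions. The chromosome 6 tRNA genes stood at 40.3%, and those in the 6p22 stretch, not drawn apart, at 41%, against 9.25% of positions in that stretch.

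Pooled over the other chromosomes, 144 of 275 nuclear tRNA genes had a peak within 500 bp (52.4%, 46.5 to 58.2%), a larger share than on chromosome 6. This order did not hold for each chromosome. Among the largest groups, the share was lower than on chromosome 6 on chromosomes 1 (27 of 85, 31.8%) and 7 (2 of 22, 9.09%). It was higher on chromosomes 16 (14 of 26, 53.8%) and 17 (29 of 33, 87.9%). Apart from protein-coding ends, the pooled count was 83 of 275 elsewhere (30.2%, 25.1 to 35.8%) against 59 of 154. The order of the pooled shares was thus the other way round for peaks of any strength. With a fold above 10 it turned back, at 44 of 275 elsewhere (16%) against 13 of 154 (8.44%), and likewise with a fold above 5 (24.7% against 20.8%). On chromosome 6 only 3 genes lost their peak by leaving out shared peaks, and elsewhere the count fell from 144 to 83. The genes so lost stay in the denominators of 154 and 275. These shares therefore also depend on how many tRNA genes have a shared peak, and do not compare stand-alone genes only. The Wilson intervals overlap after the step and the difference was not tested, since genes are not replicates.

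The 3 genes whose peak was shared with a protein-coding end lie at 2 loci. TRR-ACG1-2 and TRV-CAC1-6 are both covered by the peak over the start of HMGN4, a nucleosome-binding protein (position 26536840 to 26538956). It had a fold enrichment of 25.3 over the control, with a pileup of 92 fragments at the summit (exact Poisson 95% interval 74.2 to 113, counting error only). The summit lay 797 bp from TRR-ACG1-2 and 241 bp from TRV-CAC1-6. TRE-CTC1-7, a gene for a glutamate tRNA far from 6p22, is covered by a peak of fold 7.77 (pileup 28, 18.6 to 40.5) that lies 437 bp from an end of NCOA7, a nuclear receptor coactivator. At the other 59 genes, the nearest protein-coding end was 4.94 kb to 153 kb from the peak, with a median of 27.7 kb.

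For 15 of those 59 members the peak was within 1 kb of another annotated gene that is not a tRNA gene, a long non-coding RNA in 11 cases and a pseudogene in 4. The peaks of the other 44 genes, 28.6% of the 154 (22 to 36.2%), were over 1 kb from any such gene end. The median fold enrichment was 5.10 for those 44 genes and 5.35 for the 15. By the same measure 58 of the 275 tRNA genes elsewhere (21.1%, 16.7 to 26.3%) had such a peak, with a median fold of 10.3. Genes whose peak lay nearer to another gene's end stay in both denominators here. Transcription from the unannotated surroundings was not measured here.

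Fold enrichment at the members was low for this list. The 62 genes had a median fold of 5.32, and the 55 distinct peaks one of 5.35, against 9.63 over all 54389 peaks and 15.4 at peaks within 1 kb of a protein-coding end. The median lay at percentile 22 of all peaks, and 16 genes had a fold above the median of all peaks. The pileup, in contrast, had a median of 26 fragments both at the 55 peaks and over all peaks. The control level at the summit had a median of 3.64 fragments at the 55 peaks, 2.2 on chromosome 6 and 1.67 over all peaks. Peaks in the 6p22 stretch away from tRNA genes and protein-coding ends (n = 64) had a control level of 3.0 and a median fold of 7.1. The control level was at its lowest value, 1.28 fragments, at 1.82% of the 55 peaks and at 29% of all peaks.

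The same held against tRNA genes of other chromosomes. Counting peaks apart from protein-coding ends, the 53 on chromosome 6 had a median pileup of 25 fragments and the 63 elsewhere one of 27, whereas the control levels were 3.71 and 1.69 and the folds 5.29 and 9.67. The input's own coverage, its copy number and the number of reads that could be placed at these genes were not analysed here, and their part in the control level was not tested.

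**Figure D2:**
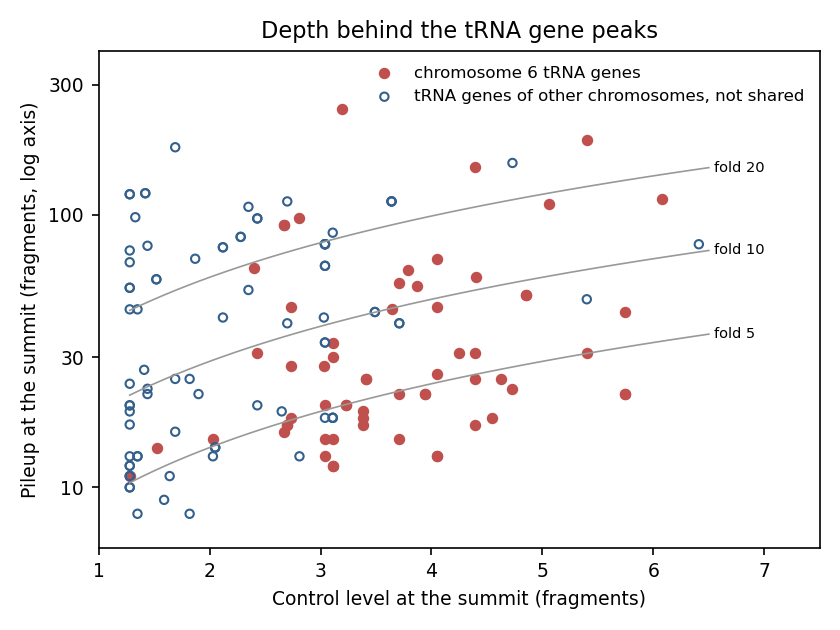
Pileup at the summit (fragments, log axis) against the control level at the summit (fragments) for chromosome 6 tRNA genes with a peak (red) and for tRNA genes elsewhere with a peak apart from protein-coding ends (open blue). Grey lines join points of equal fold. The red points span 11 to 245 fragments and lie mostly to the right of the blue points, with medians of 3.53 fragments per gene on chromosome 6 and 1.69 per distinct peak elsewhere.

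TRI-TAT2-2, a gene for an isoleucine tRNA that reads AUA codons, had the strongest peak of the group. Its peak (position 27019643 to 27020619) covered the whole gene with a fold of 58.8 and a pileup of 245 fragments (215 to 278) over a control level of 3.19. This was percentile 95.8 of fold over all peaks. The summit lay 321 bp below the gene on the coordinate axis, and the LARRPM transcript starts within the same peak. The nearest protein-coding end, of the histone gene H2BC11, was 111697 bp away. The other isoleucine genes with this anticodon on the chromosome, TRI-TAT2-3 and TRI-TAT3-1, named here after their values were seen, had no peak within 500 bp, the nearest being 13659 bp and 4684 bp away.

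The strongest peak at any tRNA gene outside chromosome 6 belonged to TRI-TAT2-1 on chromosome 2, of the same symbol family, with a fold of 66.2 and a pileup of 177 fragments (152 to 205). Its summit was 531 bp from the gene and HAAO, the nearest protein-coding gene, 17110 bp from the peak. Next came TRI-AAT5-5 on chromosome 17, whose peak of fold 57.7 is shared with other tRNA genes and with the end of BORCS6. Among all tRNA genes of the table, TRI-TAT2-2 thus had a fold below that of TRI-TAT2-1 and above that of TRI-AAT5-5.

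Beside the gene rather than over it lay the next peaks in order of fold. TRA-TGC7-1, an alanine tRNA gene, had a peak of fold 29.5 with a pileup of 188 (162 to 217), 410 bp from the gene and with its summit 725 bp away. TRQ-CTG6-1, a glutamine tRNA gene that reads CAG codons, had one of fold 28.0 with a pileup of 150 (127 to 176) and its summit at 596 bp. TRH-GTG1-5, the only histidine tRNA gene on the chromosome, had one of fold 25.7 with a pileup of 97 (78.7 to 118) and its summit at 995 bp. In these 3 cases no part of the gene was inside the peak. None of the 3 peaks was within 1 kb of an end of another gene that is not a tRNA gene, the nearest being 6247 bp, 10586 bp and 9111 bp away.

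Peaks over the whole gene were found at most of the next members. TRL-CAG1-7, a leucine tRNA gene, lay inside a peak of fold 19.1 (pileup 64, 49.3 to 81.7) together with the start of HCG11. TRQ-CTG5-1 lay inside the widest peak of the group, 2504 bp, with a fold of 18.3 (pileup 110, 90.4 to 133). TRI-AAT2-1 lay inside a peak of fold 16.3 (pileup 114, 94.0 to 137), where the control level, 6.08 fragments, was the highest among the members' strongest peaks. TRY-GTA1-1, a tyrosine tRNA gene, lay inside a peak of fold 13.4 whose summit was 24 bp from the gene, beside the start of LOC105374988. At the other 3 tyrosine genes no peak was called within 500 bp.

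The folds at the other members above 10 were 13.9 at TRA-AGC2-1 (alanine), 12.6 at TRV-AAC1-5 (valine), 12.1 at TRR-TCG5-1 (arginine), 11.5 at TRP-CGG2-1 (proline) and 11.1 at TRS-AGA2-3 (serine). Their pileups were 69, 46, 56, 55 and 59 fragments in the same order, so the exact Poisson intervals of neighbours in this order overlap. All but TRA-AGC2-1 had the whole gene inside the peak, with summits 175 to 261 bp away. Of the 13 genes with a fold above 10 and no protein-coding end, 7 had a peak over 1 kb from the end of any other gene that is not a tRNA gene.

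Ranks 14 to 25 by fold ran from 9.91 to 5.92, with pileups of 14 to 51 fragments. They were TRI-AAT5-2 at 9.91, TRL-TAA4-1 at 9.34, TRL-AAG3-1 at 9.31, TRS-AGA2-2 and TRD-GTC2-6 at 8.88 with 1 peak between them, TRV-CAC2-1 at 8.52, TRA-AGC5-1 at 7.54, TRL-CAA3-1 at 7.20, TRQ-CTG2-1 at 6.68, TRL-CAA2-1 at 6.10, TRS-AGA1-1 at 5.94 and TRL-TAA1-1 at 5.92. Leucine tRNA genes made up 5 of these 12. TRL-TAA1-1 stands alone at position 144216547, and its peak rests on 14 fragments (7.65 to 23.5) over a control level of 1.53. The remaining 34 genes had folds of 2.77 to 5.89 and pileups of 11 to 31 fragments. The lowest fold, 2.77, was that of the peak shared by TRQ-TTG3-1 and TRQ-TTG3-2, with 13 fragments.

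By amino acid, 17 of 19 classes had at least 1 gene with a peak, initiator methionine being counted apart from the methionine used in elongation. Leucine had 8 of 11 genes and glutamine 8 of 11, the initiator tRNA 4 of 6, alanine 11 of 30, serine 7 of 17, isoleucine 6 of 15 and arginine 5 of 11. Threonine had 2 of 9, valine 3 of 9, tyrosine 1 of 4 and lysine 1 of 6. The 2 classes without a peak were phenylalanine, with 6 genes, and elongator methionine, with 8. All 4 leucine genes with the anticodon CAA, which carry an intron and are the longest members at 105 to 108 bp, had a peak, with folds of 3.41 to 7.20. Of the 6 glutamine genes with anticodon CTG, 5 had one. With so few genes a class, and copies that share peaks, these counts were not tested.

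**Figure D3:**
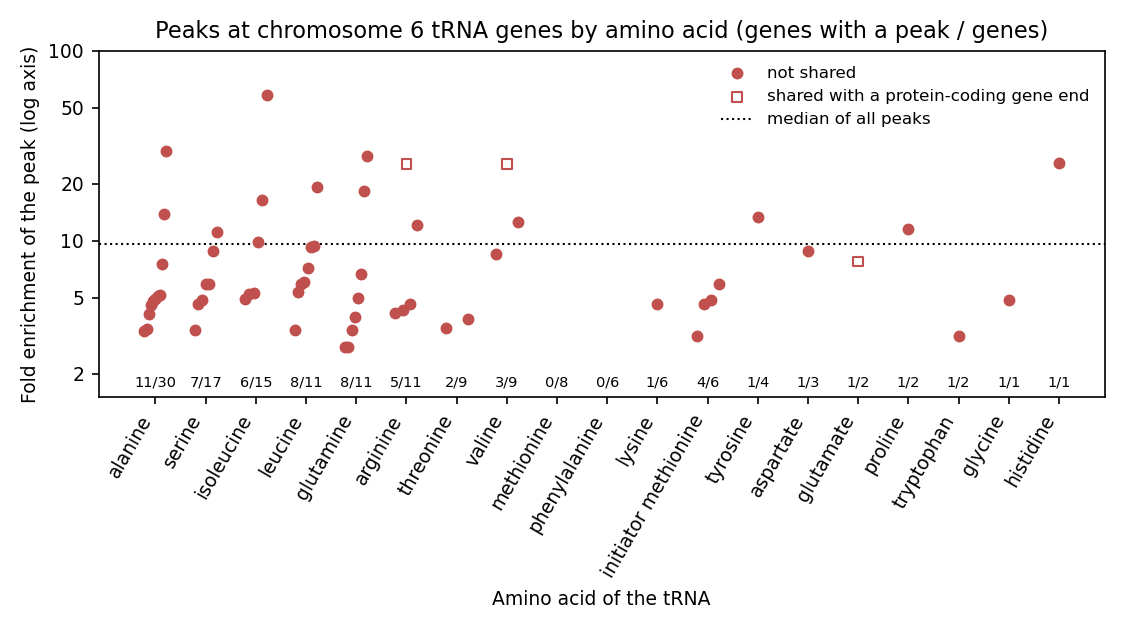
Fold enrichment of the strongest peak within 500 bp (log axis) for each chromosome 6 tRNA gene that has one, by amino acid. Filled circles are peaks apart from protein-coding ends, open squares are shared ones, the dotted line is the median of all peaks (9.63), and the numbers give genes with a peak over genes. Phenylalanine and elongator methionine have no point, and the highest point is TRI-TAT2-2 at 58.8.

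The summits lay beside the genes more often than in them. Over the 62 genes the summit of the strongest peak was a median of 358 bp from the nearest edge of the gene, and up to 1114 bp. It fell inside the gene at 4 genes, within 250 bp at 18, over 250 and up to 500 bp at 17 and beyond 500 bp at 23. The interval of the strongest peak covered the whole gene at 32 genes and part of it at 6, and at 24 it lay outside. Genes inside their peak had a median fold of 6.39 and a median pileup of 31 fragments, and those outside one of 4.64 and 19.5. On other chromosomes the median distance of the summit was 416 bp, and 5 of 144 genes held it. The table gives no strand for tRNA genes, so upstream and downstream could not be told apart.

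Peak coverage fell with distance from the genes. At the gene's edge 23.4% of chromosome 6 tRNA gene flanks were inside a peak, at 500 bp 16.9%, at 1 kb 9.09% and at 2 kb 3.57%. The corresponding values for tRNA genes elsewhere were 35.8%, 28.7%, 17.6% and 8.18%. At 32 protein-coding genes of the 6p22 stretch other than histone genes, the share was 21.9% at the edge and 7.81% at 500 bp. At the 21 histone genes it was 23.8% at the edge, 16.7% at 500 bp, 14.3% at 1 kb and 11.9% at 2 kb, so the fall with distance was slower there than at the tRNA genes in these few genes. For protein-coding genes the flanks at both ends are pooled. In a long gene these lie far apart, unlike those of a tRNA gene, so the values are not shares at gene starts.

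**Figure D4:**
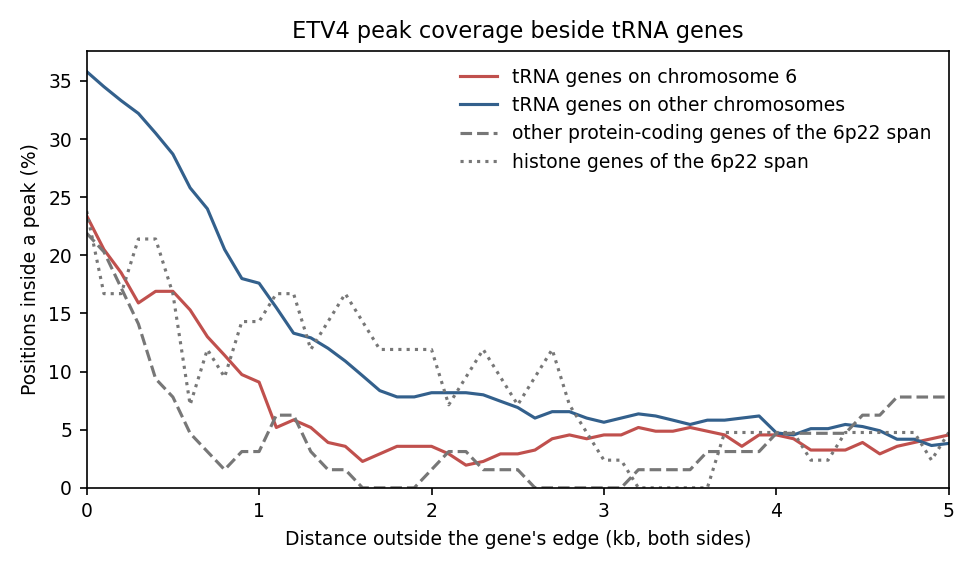
Share of positions inside an ETV4 peak (percent, from 0) against the distance outside the gene's edge (kb, both sides together), for tRNA genes of chromosome 6 (red), tRNA genes elsewhere (blue) and protein-coding genes of the 6p22 stretch other than histone genes (grey, dashed) and histone genes of that stretch (grey, dotted). Coverage at chromosome 6 tRNA genes fell from 23.4% at the edge to 3.57% at 2 kb. For protein-coding genes, histone genes included, the flanks of starts and of far ends are pooled.

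A peak, whether or not the strongest, overlapped the gene itself at 39 of 154 genes (25.3%), against 109 of 275 elsewhere (39.6%). It was 1 to 250 bp away at 10 genes and over 250 but at most 500 bp away at 13, while 7 genes had the nearest peak over 500 and up to 1000 bp away. Beyond 5 kb were 56 genes (36.4%), close to the 37.1% elsewhere. Just inside the limit stood TRA-TGC7-1 at 410 bp, TRL-CAA3-1 at 419 bp, TRA-TGC2-1 at 431 bp, TRX-CAT1-4 at 464 bp and TRQ-CTG1-3 at 467 bp. Just outside it stood TRT-CGT1-1 at 566 bp, TRT-CGT5-1 at 594 bp, TRS-AGA4-1 at 602 bp, TRF-GAA1-2 at 638 bp and TRM-CAT4-2 at 672 bp. TRF-GAA1-2 and TRM-CAT4-2 belong to the 2 classes that have no peak within the limit.

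Genes under 100 kb apart formed 12 clusters, of which 9 held a gene with a peak. Along 6p22, the first cluster, of 45.0 kb and 13 genes, had 7 genes with a peak, all with folds of at most 5.89. The cluster from TRL-CAG1-7 to TRA-AGC14-2 had 9 of 31, and that from TRI-TAT2-2 to TRK-TTT6-1, which also holds 5 histone genes, had 7 of 21 with a median fold of 11.5. The cluster from TRS-AGA2-2 to TRQ-TTG3-3 contains no protein-coding gene and had 18 of 33 genes with a peak. The pair TRX-CAT1-7 and TRG-GCC2-3 shared 1 peak, and the last large cluster had 16 of 43. The 6 genes near position 57800211, far from 6p22, had 1. The single genes TRQ-CTG1-1, TRS-GCT5-1 and TRQ-TTG4-1 had none.

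A stretch in the cluster from TRL-CAG1-7 to TRA-AGC14-2 stood out by its lack of peaks. Between positions 26673362 and 26828299 (155 kb), there are 18 tRNA genes, of which all but the middle pair, TRM-CAT4-2 and TRI-AAT6-1, form 8 pairs with the same anticodon at mirrored positions (largest offset 26 bp). Of these 18 genes, 1 had a peak (5.56%, 0.988 to 25.8%), TRI-AAT6-1 of the unpaired middle with a fold of 5.29, and of the 126 other genes in 6p22, 58 had one (46%, 37.6 to 54.7%). The stretch held 2 peaks in all, 12.9 per Mb, against 57.3 per Mb in the rest of 6p22, so peaks of any kind were few there. In this stretch lie 5 of the 8 elongator methionine genes. The arrangement was noticed after the values were seen. How reads that fit several places were handled is not given in the sources used here, and its part in the low count was not tested.

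A split by symbol family on chromosome 6 alone gave no such contrast, but it is not a count of near-identical copies. Members elsewhere were left out, so TRH-GTG1-5 counts as single although TRH-GTG1-1 lies on chromosome 1. In the mirrored stretch, TRA-AGC10-1 and TRA-AGC9-1 count as single although each is paired with a TRNAA-AGC gene. The part of near-identical copies was not tested. Of the 94 genes whose symbol family has 1 member on the chromosome, 38 had a peak (40.4%, 31.1 to 50.5%), and of the 60 genes with 2 or more, 24 had one (40%, 28.6 to 52.6%). Within families, however, copies differed. Of the 6 initiator methionine copies of TRX-CAT1, 4 had a peak, with folds of 3.16 to 5.89, whereas TRX-CAT1-2 and TRX-CAT1-5 had their nearest peak at 17197 bp and 19956 bp. Of the 4 copies of TRS-AGA2, 2 had one, with folds of 8.88 and 11.1.

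**Figure D5:**
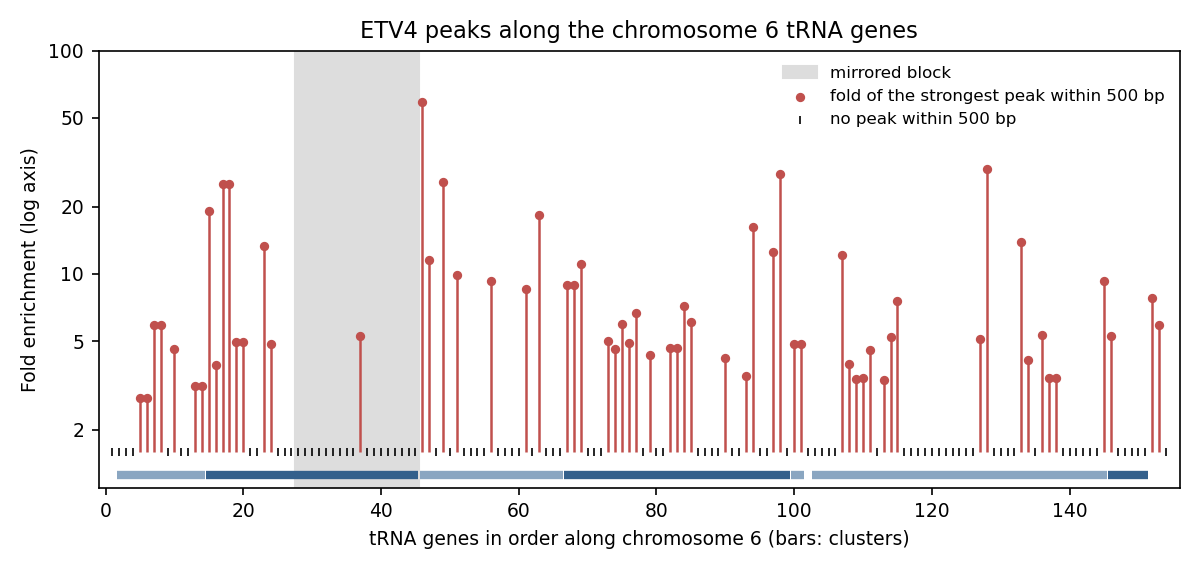
Fold enrichment of the strongest peak within 500 bp (log axis) at the 154 tRNA genes in their order along chromosome 6, equally spaced. Ticks mark genes with no peak within 500 bp, blue bars mark clusters of more than 1 gene, and the grey band marks the mirrored stretch, where 1 of 18 genes has a peak.

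Genes of RNA polymerase III transcription, not only that of tRNAs, and of tRNA processing and export were compared from a list of 71 genes. It includes 21 other transcripts of that polymerase, and a peak was counted within 1 kb of either gene end. Of the 50 protein-coding genes in it, 48 had a peak (96%, 86.5 to 98.9%), with a median fold of 15.6, against 62.7% of all protein-coding genes (n = 19817) by the same measure. The larger set was not matched to the list for expression, which was not measured here, and the difference was not tested. All 6 subunits of TFIIIC, which binds the A and B boxes, and all 4 TFIIIB and related genes had a peak. The highest folds among protein-coding genes were 54.2 at MAF1, the repressor of RNA polymerase III, 38.8 at GTF3C4, a TFIIIC subunit, 38.5 at POLR3F, a polymerase subunit, and 38.0 at TSEN54, a subunit of the tRNA splicing endonuclease. On chromosome 6 itself lie GTF3C6 with a fold of 14.6, TBP with 6.35, RPP40 with 7.40, RPP21 with 3.41 and POLR1C with 14.7, named here after their values were seen.

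Of the 21 other RNA polymerase III transcripts in the list, 11 had a peak (52.4%, 32.4 to 71.7%), with a median fold of 8.91 and the highest at RNU6ATAC, a spliceosomal RNA gene, at 63.0. The peaks of 4 of these 11, RPPH1, RMRP, RN7SK and RNU6-2, were shared with a protein-coding end, which leaves 7 of 21 apart from one (33.3%, 17.2 to 54.6%), with a median fold of 7.81. Those without one were RNY3, RNY5, VTRNA1-1, VTRNA1-3, VTRNA2-1, BCYRN1, SNAR-A1, RNU6-7, RNU6-8 and RNU6-9. The share at tRNA genes of chromosome 6 by the wider limit of 1 kb was 69 of 154 (44.8%). The share over all RefSeq genes by that limit is not given here, and within 500 bp of an end it was 29.5%. The medians of 15.6 at the protein-coding genes, 8.91 at the other transcripts and 5.32 at the chromosome 6 tRNA genes come from the same library. They were not tested against each other. The 15.6 is close to the median of 15.4 over all peaks within 1 kb of a protein-coding end.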

How the data were processed

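ChIP-seq peaks of 1 anti-Flag immunoprecipitate, called against 1 input by the authors, were used. The submitters' processing notes name Bowtie2 2.4.1, SAMtools, MACS2 2.2.7.1 and deepTools 3.5.0 with hg38. The study's text states a minimum fold change for its peaks, and the lowest deposited fold is 2.34. Other peak settings and the handling of duplicate or multiply placed reads are not given in the sources used here. The antibody is a CST product in the study's methods and a Sigma product in the labels. The deposited list gives, per peak, the fold enrichment over control (a ratio with a pseudocount of 1), and the −log10 of both its p-value and its q-value at the summit. A score column and the positions were also deposited by the authors, and the score was not used.

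Genes came from RefSeq outer ends, without strand. A peak was assigned to a tRNA gene when it overlapped the gene extended by 500 bp, and was called shared when it lay within 1 kb of a protein-coding gene end. Genes with several peaks were given the highest fold. Pileup and control level at the summit were solved from fold and −log10 p. Solved pileups were whole numbers to within 0.00914. The step was tested on 20000 simulated peaks, 100% recovered. The depth behind a member's peak was 11 to 245 fragments.

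No test was possible with 1 library. Intervals are 95% and cover counting error only. The members and lists were chosen with earlier results of these data known. Named were the 25 members of highest fold apart from protein-coding ends, those with shared peaks, the 5 on each side of the limit, the pathway genes of highest fold, the transcripts without a peak, and the tRNA genes elsewhere of highest fold. Some genes of the pathway list are not reported here. All other genes, anticodon groups and symbol families were named after their values were seen. Alternatives covered the window, thresholds on fold and q, summits, the protein-coding distance and merged loci. Positions are 1-based. Software was Python 3.11.15 with scipy 1.17.1, pandas 2.3.3, numpy 2.4.6 and matplotlib 3.10.9.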

Additional observations from a re-analysis of the deposited data

How the results depend on the processing

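No replicate existed, so no value here has an error between samples, and a gene without a peak may lie below the authors' threshold at this depth. No paired analysis was possible because there was 1 immunoprecipitate. The count of 62 genes with a peak (59 apart from protein-coding ends) became 39 (36) with overlap of the gene itself, 35 (32) with a fold above 5, 15 (13) above 10, 31 (28) with −log10 q above 10 and 40 (38) with the summit of any peak within 500 bp. Elsewhere the count of 144 became 87 with a fold above 10 and 92 by summits, and the 83 apart from protein-coding ends became 44 with a fold above 10. The percentile of the members' median, 22 by fold, was 49.2 by pileup, since the pileup leaves out the control level. The pathway count of 59 became 38 with a fold above 10. Restricting the count to the 94 genes whose symbol family has 1 member on chromosome 6, an alternative chosen after seeing the data, gave 38, with a share of 40.4%. The mirrored stretch was left out as another such alternative and gave 61 (58), or 44.9% (42.6%). The order between chromosome 6 and the other chromosomes pooled, 40.3% against 52.4%, was also found with overlap of the gene, with 25.3% against 39.6%. Apart from protein-coding ends, alternatives added after seeing the data gave a lower share on chromosome 6 than elsewhere with overlap of the gene (23.4% against 24%), a fold above 5 (20.8% against 24.7%) or 10 (8.44% against 16%) and −log10 q above 10 (18.2% against 21.5%), and a higher one with windows of 250, 1000 and 2000 bp and by summits. In all, 33 alternative values, some of them given above, lay within 1.5 times the main count or within the spread used for a value without a test.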
